A study of Apis mellifera with 9 samples.

Results

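In honey bee (Apis mellifera) larvae, 36 of 15314 listed genes met the conditions of level and size given below. They were higher on food with 0.25 mM quercetin in every library while their mean at 0.1 mM stayed within 10% of control. These 36 genes were selected on measured values: CPM (a gene's reads out of every 1000000 reads counted on genes in that library) in the same 9 libraries that are described here. A gene had to average at least 5 CPM, to be higher in all 3 libraries of 0.25 mM than in all 6 others, and to have a 0.25 mM mean of at least 1.4 times control. Its 0.1 mM mean had to be 0.9 to 1.1 times control, without all 3 libraries of 0.1 mM lying above all 3 controls. The levels at the 3 diets are therefore a description of the choice and were not tested as a result.

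Larvae were reared in the laboratory in single wells with 30 µl of a diet made from royal jelly (50%), sugars and yeast extract. The diet held no quercetin (control), 0.1 mM or 0.25 mM, and all 3 diets otherwise shared the same base. There were 3 libraries a diet, and a replication held 10 to 12 newly hatched larvae that were fed for 3 days. The sources do not say whether replications came from separate colonies or how many larvae entered a library, so differences between libraries may be partly technical. The labels give whole larvae as the source and midguts in the extraction step. The genes carry only GB identifiers, of which 0 of 15314 matched the 12398 genes of the RefSeq table used here (Amel_HAv3.1), so the tissue could not be checked against marker genes and no function, sequence or position is given for any gene.

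Quercetin is a flavonol, a plant phenolic that is common in pollen, nectar and honey, and bees take it up with their food from the larval stage on. Insects handle such compounds with detoxification enzymes, among them cytochrome P450s, which add oxygen to the compound, and transferases, which attach sugars or glutathione before export.

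The gene counts of a library summed to 34456449 to 42874091 reads. Libraries of 1 diet were further apart than counting alone gives, since the chi-square statistic over genes was at least 12.2 for each degree of freedom. The 3 libraries of 0.25 mM carry the same heading in the table. They are called a, b and c as names only. Library a stood apart from b and c, where the same statistic was 109.2 against b and 77.3 against c, beside 21.4 between b and c. The scale also matters for these genes. The median feature of at least 5 CPM stood at 0.926 of control at 0.25 mM, a log2 shift of -0.11, and at 0.986 at 0.1 mM. With library sizes scaled by TMM (factors that set the bulk of genes equal), the first value was 0.976. In bulk samples, fewer cells of a type and less RNA per cell cannot be told apart.

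The path from all genes to the 36 shows which step chose them. Of 15314 genes, 8158 averaged at least 5 CPM. Of these, 289 (3.54%) had all 3 libraries of 0.25 mM above the 6 others, and 142 also reached 1.4 times control. Only 40 of the 142 had a 0.1 mM mean within 0.9 to 1.1 of control, and 4 of those were left out because every 0.1 mM library lay above every control. The other 106 genes of the 142 failed the 0.1 mM conditions alone: 101 had a 0.1 mM mean above 1.1 times control, 1 lay below 0.9, and 4 are those just named. With plain CPM, genes with a flat 0.1 mM mean were thus the minority of these 142.

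**Figure D1:**
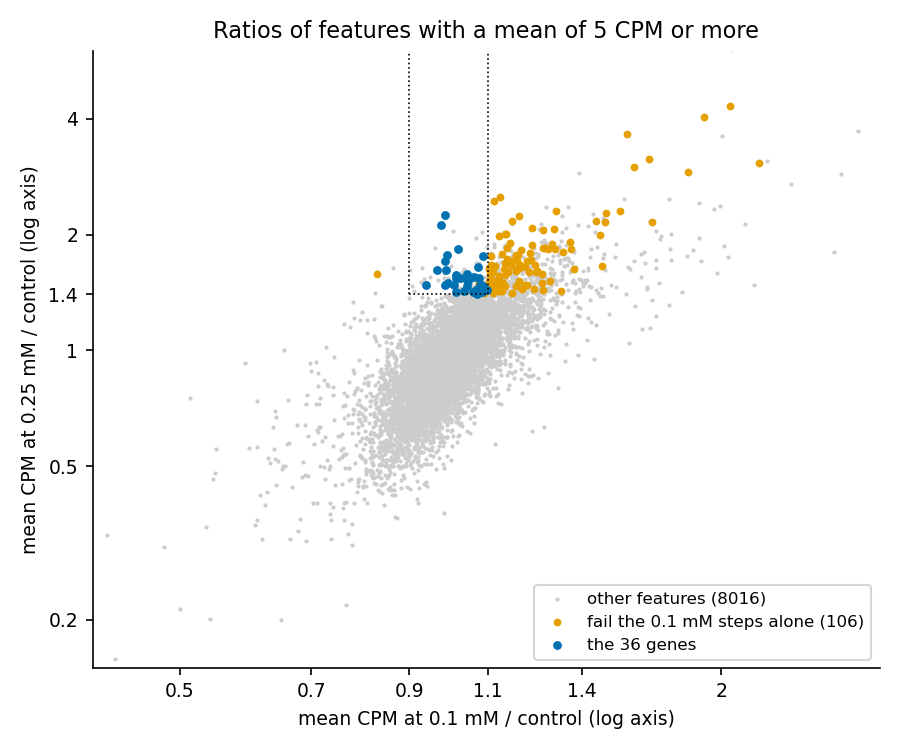
Mean CPM at 0.1 mM over control (x axis, log) against mean CPM at 0.25 mM over control (y axis, log) for the 8158 features of at least 5 CPM, of which 11 lie outside the axes; each point is 1 feature and the dotted lines mark the range of 0.9 to 1.1 and the minimum of 1.4. The 36 genes fill the lower part of the marked area, up to 2.25 times control, and most of the 106 genes that fail the 0.1 mM conditions alone continue to its right.

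The same conditions with the diets exchanged or turned downwards give the scale of these counts. With plain CPM, 346 genes were lowered only at 0.25 mM, 3 were raised only at 0.1 mM and 1 was lowered only at 0.1 mM. With TMM-scaled CPM the counts were 121 raised and 166 lowered only at 0.25 mM, and 1 raised and 1 lowered only at 0.1 mM. The excess of lowered over raised genes at 0.25 mM thus shrank from 346 against 36 to 166 against 121 with the scaling. Of the 36 genes, 34 were among the 121.

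Most of the 36 increases were modest. The ratio of the 0.25 mM mean to control had a median of 1.49 and ran from 1.41 to 2.25, with 18 genes under 1.5, 16 from 1.5 to 2 and 2 above 2. At 0.1 mM the ratio had a median of 1.04 and ran from 0.940 to 1.1. With TMM-scaled CPM the medians were 1.57 at 0.25 mM and 1.05 at 0.1 mM. Together the 36 genes took 0.276%, 0.295% and 0.284% of the gene counts in the controls and 0.303%, 0.302% and 0.293% at 0.1 mM. At 0.25 mM they took 0.349% in library a, 0.452% in b and 0.443% in c. The shares of control and 0.1 mM overlapped, and the 3 libraries of 0.25 mM lay above them, as the choice requires gene by gene.

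The 36 genes ran from 5.02 to 1031 CPM in their mean level, and scarce genes were a larger share of them than of the 8158 features of at least 5 CPM. Their mean level had a median of 19.3 CPM, against 38.3 CPM for all 8158 features of at least 5 CPM. In the class of 5 to 10 CPM stood 11 genes, or 30.6% of the 36, against 11.6% of the 8158. The class of 10 to 100 CPM held 17 genes (47.2% against 68%) and that of 100 CPM or more held 8 (22.2% against 20.4%). The scarce class had the larger ratios, with a median of 1.64 and a range of 1.45 to 2.25, while the abundant class had a median of 1.42 and a range of 1.41 to 1.62. The conditions act differently on scarce genes, whose values carry more counting error, and the part of that error in the difference between classes was not tested.

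The 8 abundant genes show the pattern with the least counting error. Their summed level was 2238, 2420 and 2307 CPM in the controls and 2496, 2470 and 2395 CPM at 0.1 mM. It was 2856 CPM in library a, 3640 in b and 3536 in c. Of the 3 libraries of 0.1 mM, 2 lay above all controls in this sum, and library a lay between the 0.1 mM libraries and libraries b and c. GB48905-RA alone gave 835.2, 944.6 and 882.2 CPM of the control sums, so the order of control and 0.1 mM libraries leans on this gene.

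The gene with the largest ratio, GB47475-RA, had 3.51, 4.01 and 4.57 CPM in control and 4.02, 3.41 and 4.48 CPM at 0.1 mM. It had 6.06 CPM in library a, 12.3 in b and 8.81 in c. Library a thus stood well above the other 6 libraries but at about the level that is 1.5 times control, while b stood at 3.06 times and c at 2.19 times. The means were 4.03 ± 0.531, 3.97 ± 0.537 and 9.07 ± 3.15 CPM at the 3 diets in order of dose (SD, n = 3). The log2 difference of 0.25 mM from control was 1.24 ± 0.233 (± SE; edgeR quasi-likelihood test, adjusted p = 0.00877). The gene was chosen on this contrast, so nothing is read from the p-value.

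The gene with the next largest ratio was GB52204-RA. It had 7.0, 7.11 and 6.30 CPM in control, 6.59, 7.04 and 6.30 CPM at 0.1 mM, and 8.54, 18.2 and 16.4 CPM in libraries a, b and c. Its control and 0.1 mM libraries lay on top of each other, and nearly all of the increase was in b and c. Means were 6.80 ± 0.438, 6.64 ± 0.370 and 14.4 ± 5.13 CPM (SD, n = 3), with a log2 difference of 1.15 ± 0.233 between 0.25 mM and control (± SE; edgeR, adjusted p = 0.0102). Here too the choice used the contrast, and nothing is read from the p-value.

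The most abundant of the 36, GB48905-RA, had 835.2, 944.6 and 882.2 CPM in control and 987.2, 972.7 and 896.6 CPM at 0.1 mM. It reached 1097 CPM in library a, 1325 in b and 1337 in c. A pair of its 0.1 mM libraries lay above every control, and its 0.1 mM mean was 1.07 times control, near the upper limit of the choice. The log2 difference between 0.25 mM and control was 0.57 ± 0.101 (± SE; edgeR, adjusted p = 0.00752), a contrast that the choice used, so nothing is read from the p-value. GB40868-RA, the gene of the next highest level, had 301.4, 282.8 and 294.3 CPM in control, 301.2, 308.8 and 328.7 CPM at 0.1 mM, and 347.7, 465.4 and 421.8 CPM at 0.25 mM. Its ratio of 1.41 was the smallest of the 36.

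The smallest p-values between the 2 doses belonged to GB48052-RA and GB55070-RA, both among the abundant genes. GB48052-RA had 191, 207.2 and 206.8 CPM in control, 201.7, 217.7 and 232.2 CPM at 0.1 mM and 263.2, 318.5 and 313.7 CPM at 0.25 mM. The log2 difference between the doses was 0.53, with a 95% interval of 0.346 to 0.715 (edgeR, adjusted p = 0.0774). GB55070-RA had 130, 139.3 and 123.7 CPM in control, 136.2, 149.9 and 145.5 CPM at 0.1 mM and 171.2, 205.7 and 186.4 CPM at 0.25 mM, and a log2 difference between the doses of 0.45 (0.279 to 0.63). Its 0.1 mM ratio of 1.1 was the highest of the 36, so both genes with the smallest p-values between the doses already stood slightly above control at 0.1 mM. The choice required 0.25 mM to lie above 0.1 mM in every library, so these p-values only rank the genes.

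**Figure D2:**
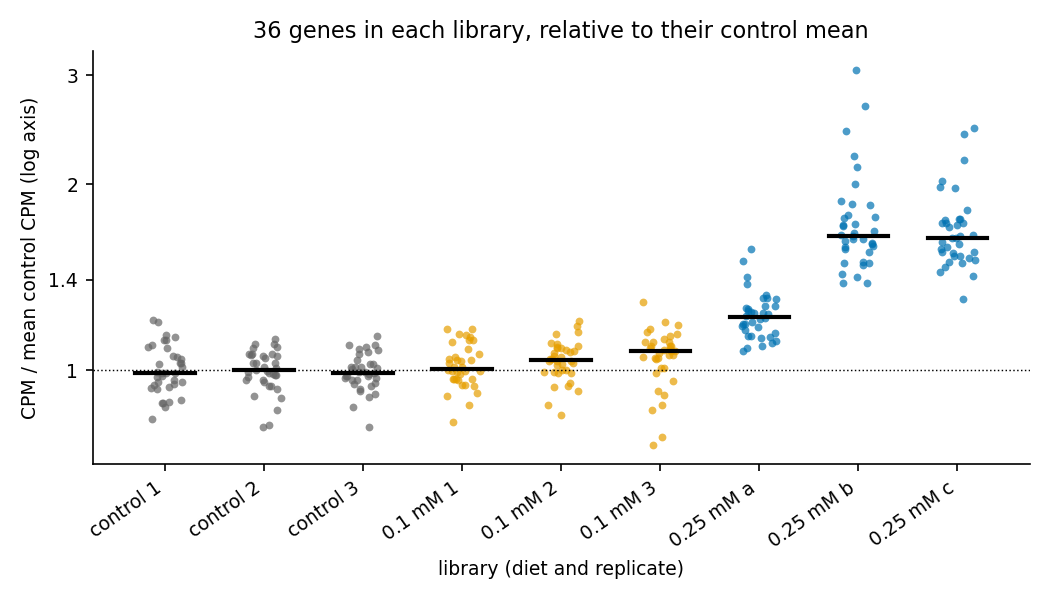
CPM of each of the 36 genes divided by its own control mean (y axis, log) in the 9 libraries (x axis); points are genes, black bars are medians and the dotted line is the control mean. Medians lie between 0.991 and 1.08 in the 6 libraries of control and 0.1 mM, at 1.22 in library a of 0.25 mM, and at 1.65 and 1.64 in b and c.

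Library by library, the 3 replications of 0.25 mM did not show the same increase. Relative to its control mean, the median gene stood at 1.22 in library a, with a range of 1.07 to 1.57, at 1.65 in library b (1.38 to 3.06) and at 1.64 in library c (1.3 to 2.46). With TMM-scaled CPM the median in library a was 1.3. With plain CPM, a level of 1.4 times control was reached by 3 of the 36 genes in library a, 34 in b and 35 in c. The threshold on the mean of the diet was thus met largely through b and c, and library a entered through the condition that it exceed the other 6 libraries. Over all 8158 features the medians of the 3 libraries relative to control were alike, at 0.927, 0.927 and 0.917. Measures of the libraries also set a apart from b and c. Reads that fell on no feature made up 12.9% in library a, 12.2% in b and 12.1% in c, against 13.2% to 13.8% in the 6 other libraries. Reads that could not be given to 1 feature made up 3.36%, 3.04% and 3.03%, against 3.44% to 3.58%. The part of these differences in the gene values was not tested.

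Library a was the lowest of the 3 libraries of 0.25 mM in 35 of the 36 genes, against 43.5% of the 8158 features. Among the 106 raised genes that fail the 0.1 mM conditions alone, it was the lowest in 86.8%. Library b was the highest in 22 genes, c in 13 and a in 1. In the median gene, the rise of library a over the control mean was 32% of the mean rise of b and c, and it was under 50% in 32 genes. The single gene in which library a was the highest, GB47504-RA, was picked out after its values were seen. It had 20.4, 16.7 and 13.7 CPM in control, 19.3, 17 and 18.3 CPM at 0.1 mM and 26.6, 24 and 22.1 CPM in libraries a, b and c, and its controls were spread more widely than its 0.25 mM libraries.

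Libraries b and c were close to each other. They lay within 1.2-fold in 30 of the 36 genes, and 33 genes reached 1.4 times control in both. The median coefficient of variation over the 3 libraries of 0.25 mM was 18.3%, against 7.36% in control and 7.14% at 0.1 mM. Over all 8158 features these medians were 10.6%, 5.39% and 5.83%. Over b and c alone the median was 6.45% for the 36 genes and 3.83% for all features. A value over a pair of libraries is not like one over 3, and this pair was picked with the data known. No pair was computed in the other diets, so the part of library a in the wider spread at 0.25 mM was not tested.

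**Figure D3:**
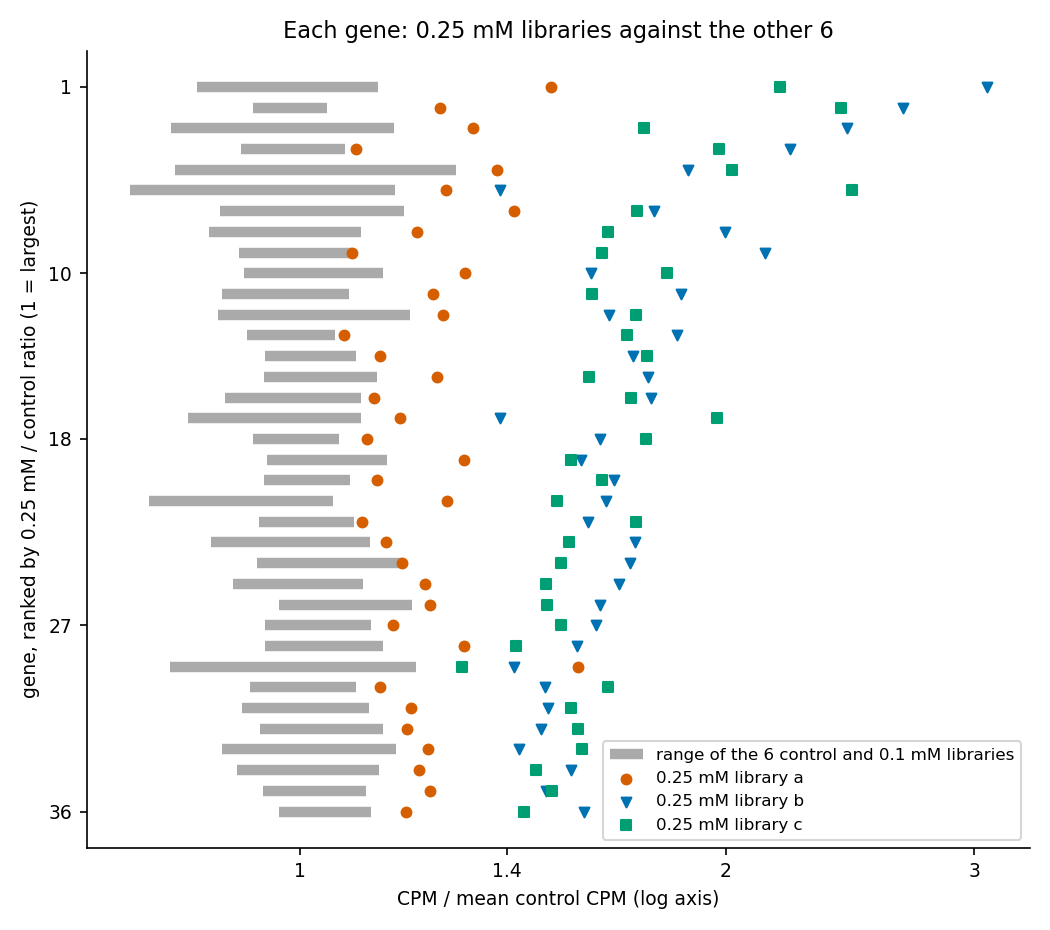
Each row is 1 of the 36 genes, ranked by the ratio of 0.25 mM to control; the x axis (log) is CPM divided by the gene's control mean, grey bars span the 6 libraries of control and 0.1 mM, and symbols are libraries a, b and c of 0.25 mM. The lowest of the 3 symbols lies at 1.00 to 1.33 times the upper end of the grey bar, and it is library a in 35 of the 36 rows.

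The distance that placed library a above the other 6 libraries was small in many genes. The lowest 0.25 mM library exceeded the highest of the 6 others by a factor of 1.07 in the median gene, with a range of 1.00 to 1.33. The factor was under 1.05 in 14 genes and at least 1.1 in 12. The lowest count of any of the 36 genes in a library was 109 reads. The exact 95% Poisson interval of the lowest 0.25 mM library, which covers counting error only, overlapped that of the highest other library in 26 of the 36 genes. These were 10 of the 11 scarce genes, 15 of the 17 in the middle class and 1 of the 8 abundant ones. In 2 of the 36 genes the gap was wider than the whole range of the 6 other libraries.

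A 0.1 mM library was the highest of the 6 others in 25 of the 36 genes, and that was replicate 3 in 13, replicate 1 in 7 and replicate 2 in 5. The 3 libraries of 0.1 mM had medians of 1.01, 1.04 and 1.08 relative to the control mean, beside 0.965, 0.972 and 1.02 over all 8158 features. The mean at 0.1 mM was above control in 27 genes and below it in 9, and it lay within 5% of control in 19. In 11 genes all 3 libraries of 0.1 mM were above the control mean, and in all 36 the ranges of control and 0.1 mM overlapped. The flat 0.1 mM mean is a condition of the choice, so these counts describe where within the allowed 10% the genes lay.

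Values on both sides of most thresholds were close. The lowest ratio of 0.25 mM to control inside was 1.406, and the highest among the 115 genes that failed this condition alone was 1.399. The highest 0.1 mM ratio inside was 1.098, and the nearest of the 38 genes that failed by a higher ratio had 1.103. The lowest mean inside was 5.02 CPM, and the highest of the 49 genes that failed by level alone was 4.91 CPM. The lowest 0.25 mM library stood at 1.00036 times the highest other library in the last gene inside, and at 0.998 times in the nearest of 84 genes outside. At the lower limit of the 0.1 mM ratio, the lowest gene inside had 0.940 and the only gene that failed by a lower ratio had 0.827.

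**Figure D4:**
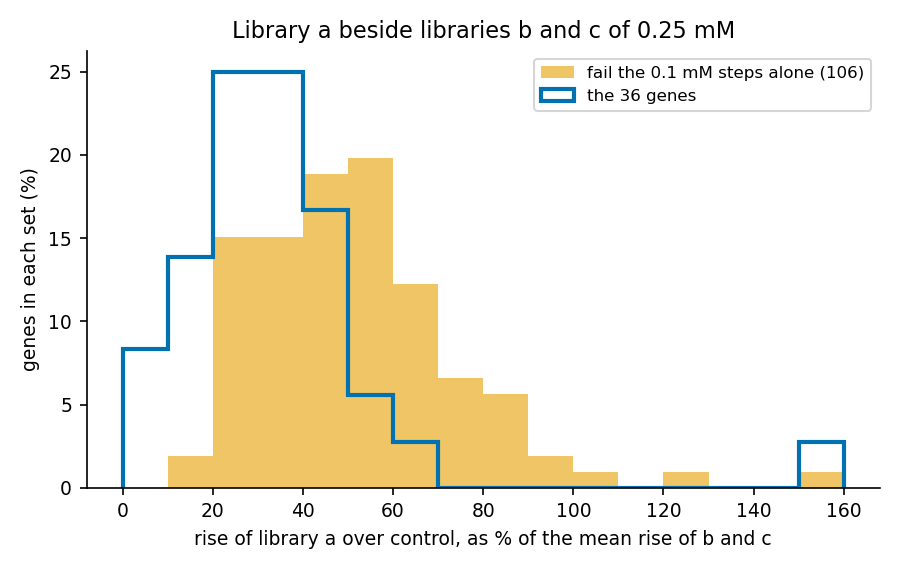
Rise of library a over the control mean as a percentage of the mean rise of libraries b and c (x axis), as the share of genes in each set (y axis, %), for the 36 genes (outline) and the 106 genes that fail the 0.1 mM conditions alone (filled). The 36 genes have a median of 32% and the 106 genes one of 49.9%.

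The 106 genes that met every condition but those on 0.1 mM are the nearest comparison. Their 0.25 mM ratio had a median of 1.65 (1.41 to 4.31) and their 0.1 mM ratio one of 1.19. Library a was the lowest of 0.25 mM in 92 of them, or 86.8%, against 97.2% of the 36. In the median gene library a reached 49.9% of the mean rise of b and c, against 32% in the 36, and the 0.1 mM mean reached 23.2% of it, against 6.38%. Both sets were divided by their 0.1 mM values. The lower place of library a in the 36 is not separated from that choice by any library that the choice did not use, and no test of the difference was made.

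In the fit across all 11508 genes that passed a filter on low counts, all 36 genes passed the filter and all 36 were called higher at 0.25 mM than in control, where 17.1% of all tested genes were called higher (edgeR quasi-likelihood test, adjusted p under 0.05). The choice used this contrast, so nothing is read from the count. Log2 differences had a median of 0.65 and ran from 0.57 to 1.24, with standard errors from 0.0784 to 0.263 and adjusted p-values from 0.00501 to 0.035. The median over all tested genes was 0.01. When 1 library was left out, between 26 and 36 of the 36 remained called, with the lowest number without library c. The calls over all genes moved as well. They were fewest without library c, with 682 of 11570 genes called higher, and most without library a, with 3179 of 11596.

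Between 0.25 mM and 0.1 mM none of the 36 genes passed the test, and 0% of all 11508 genes did (edgeR, adjusted p of the 36 from 0.0774 to 0.0856). Log2 differences had a median of 0.62 and ran from 0.45 to 1.26. An unadjusted p under 0.05 with a higher level at 0.25 mM was found for all 36, and for 15.5% of all genes. DESeq2 called all 36 as higher, with 8.48% of all genes, and limma-voom none. Without library a the edgeR test called all 36, with 21.4% of all genes called higher. The choice required every library of 0.25 mM to lie above every library of 0.1 mM, so these values describe the chosen genes and nothing is read from the counts.

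At 0.1 mM against control none of the 36 was called by edgeR, where 0.0695% of all genes were. None had an unadjusted p under 0.05, where 1037 of all 11508 genes had. In the fits on only the 6 libraries compared, with the replicate number as a block, or without library a, 1 of the 36 had one. DESeq2 called 147 of all genes and none of the 36. The choice held the 0.1 mM mean within 10% of control, so the lack of calls follows from it and nothing is read from these counts. Log2 differences ran from -0.08 to 0.14 with a median of 0.07. As the choice leads to, all 36 95% intervals included no change. In 31 genes the interval excluded an increase of 1.4-fold. The upper bounds ran from 0.219 to 0.588 on the log2 scale. In 35 of the 36 genes the interval also included 0.4 of the gene's own log2 change at 0.25 mM, which is what a log-linear response to dose would give at 0.1 mM. The intervals are given for their width only.

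The place of 0.1 mM relative to a straight line from control to 0.25 mM was fitted for every gene. It lay below the line in all 36 genes, by a median of 0.21 on the log2 scale and a range of 0.1 to 0.52, as the choice of a flat 0.1 mM mean leads to. None of the 36 departed from the line after adjustment, and neither did any of the 11508 genes (0%; edgeR, adjusted p = 0.931 for each of the 36; 465 of all genes at an unadjusted p under 0.05). DESeq2 called 23 of all genes and none of the 36. Without library a, 9 of the 36 were called below the line, with 1.53% of all genes. The choice places the 36 below the line, so nothing is read from these counts.

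Each library was also left out in turn, the genes were chosen again from the other 8, and the left-out library was read. The left-out library had no part in that choice, but the libraries it is set against did, so only 1 side of each comparison is independent of the choice. All features of at least 5 CPM were under no such choice, so their shares give a scale and not a like reference. Without library b, 23 genes were chosen, of which 17 belong to the 36. Library b lay above all 6 libraries of the other diets in 20 of the 23, or 87%, against 27.3% of all features of at least 5 CPM, and its median ratio to control was 1.6. Without library c, 27 genes were chosen, and library c lay above all 6 others in 24, or 88.9%, against 24.6% of all features, again with a median ratio of 1.6.

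Library a gave another reading. Without it, 278 genes were chosen, of which 35 belong to the 36. Library a lay above all 6 libraries of the other diets in 66 of the 278, or 23.7%, against 6.1% of all features. Its median ratio to control in these genes was 1.06, against 0.927 over all features. It reached 1.4 in 2 of them, and in 162 it lay within the range of 0.9 to 1.1 that defines a flat 0.1 mM mean. With TMM-scaled CPM, 375 genes were chosen and library a lay above the 6 others in 180, or 48%, against 17.8% of all features. Its median ratio was then 1.11, against 0.986 over all features, and 155 of the 375 lay within 0.9 to 1.1. In genes chosen without it, library a thus had a higher ratio to control than its own median feature. The controls in this ratio took part in the choice, so the part of the choice in the difference is not separated.

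For the control libraries, 32, 43 and 44 genes were chosen without replicate 1, 2 and 3. The left-out control lay below all 3 libraries of 0.25 mM in 29, 42 and 43 of them, or 90.6%, 97.7% and 97.7%, against 19.2%, 26% and 24.3% of all features. At 0.1 mM, the left-out library lay below all 3 libraries of 0.25 mM in 33 of 36 genes for replicate 1 (91.7%, against 24.8% of all features) and in 40 of 46 for replicate 2 (87%, against 16.3%). For replicate 3 it did so in 38 of 87 genes, or 43.7%, against 8.69% of all features, and its median ratio to control there was 1.2. With TMM scaling, replicate 3 lay below in 124 of 168 genes, or 73.8%, against 25.1% of all features, so both shares moved with the scaling. The choice had already set the libraries of 0.25 mM high in these genes, so nothing is read from the distance to all features. Genes of 1 library are not independent of each other, so no p-value or interval is given for these shares.

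**Figure D5:**
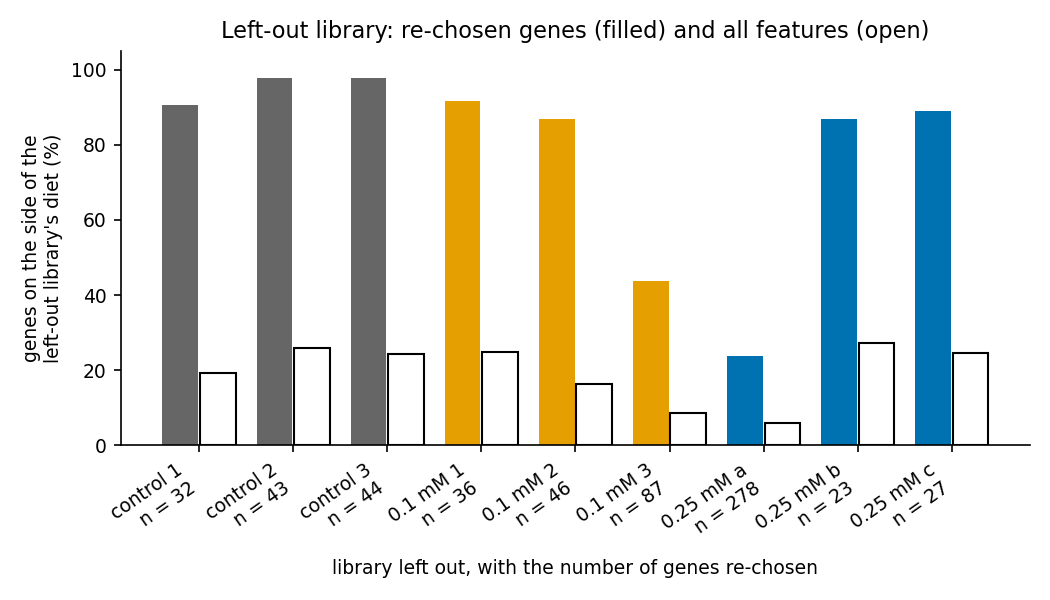
Share of genes (y axis, %) in which the library left out of the choice lies on the side of its own diet: below all 3 libraries of 0.25 mM for control and 0.1 mM, above all 6 others for 0.25 mM. Filled bars are genes chosen again from the other 8 libraries (number under each bar), open bars are all features of at least 5 CPM; filled bars reach 87% or more except for 0.1 mM replicate 3 (43.7%) and 0.25 mM library a (23.7%).

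The identifiers of the 36 genes were compared by number. No pair had consecutive numbers, and the closest pair was 19 numbers apart. These distances were not computed for other genes, so nothing is read from them. The numbers run in the order of the table, but the sources used here do not say whether they follow the genome. Around the 36 genes, 71 other features carried a number 1 above or below, and 42 of them averaged at least 5 CPM. In 6 of these 42, or 14.3%, all 3 libraries of 0.25 mM lay above the 6 others, against 3.54% of all 8158 features, and the median ratio of 0.25 mM to control over the 42 was 1.08, against 0.926. With TMM scaling the number was 11 of 42, or 26.2%, against 10.8%. A pair of the 6 neighbours also reached 1.4 times control and failed the 0.1 mM conditions alone, with 0.1 mM ratios of 1.1 and 1.3. The 6 included the features 1 above and 1 below the same gene, so they are not 6 separate places. The difference between the neighbours and all features was not tested. The sources used here do not say how reads of overlapping or similar genes were counted.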

How the data were processed

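The values are raw read counts, deposited by the authors as 1 table of features by 9 libraries, 3 per diet. The submitters' processing notes name CASAVA 1.8, HTSeq and edgeR without roles. Which aligner, build and annotation were used, and whether counting used strand, is not stated there: not given in the sources used here. Columns were assigned by heading; those of 0.25 mM all carry the same heading, with the same replicate number, and so cannot be told apart by replicate. No column was left unused. Library sizes and tests leave out 5 bookkeeping lines. Per library, 12.1% to 13.8% of reads fell on no feature, 3.03% to 3.58% were ambiguous and 17% to 18.4% were not aligned.

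CPM (reads of a feature per 1000000 feature reads) was computed on the sum of the 15314 features. Counts were tested in R 4.3.3 with edgeR 4.0.16 (filterByExpr, TMM, estimateDisp, glmQLFit, glmQLFTest, 1 coefficient per diet, all 9 libraries, 6 residual degrees of freedom), with Benjamini-Hochberg adjustment over all genes. Standard errors came from the log2 difference and the F statistic. Alternatives were DESeq2 1.42.0, limma-voom (limma 3.58.1), other factors and filters, and left-out libraries; the edgeR fit was tested on simulated data. Genes named are, with no gene names, 2 each by largest ratio, smallest p between the doses and highest mean. The members, gene lists and tests were chosen with earlier results of these data known; the planned lists by gene name could not be evaluated. P-values measure only the spread between these samples.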

Additional observations from a re-analysis of the deposited data

Results flagged for a closer look

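The share of reads that were not aligned lies outside the comparisons above. It averaged 17.9% ± 0.526 at 0.25 mM (SD, n = 3), while controls averaged 17.3% ± 0.370 (SD, n = 3) and did not exceed 17.7%, so the 0.25 mM mean lay above every control. Libraries b and c, which carried most of the increase of the 36 genes, had 18% and 18.4%, and library a had 17.3%. The part of this difference in the gene values was not tested.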

How the results depend on the processing

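The number of genes found depended on scaling, thresholds and libraries. It was 36 with plain CPM, 121 with TMM factors, 128 with RLE factors and 107 with totals that leave out the 20 most abundant features, and 34 of the 36 were in each of these. A minimum mean of 1 CPM gave 62, a 0.1 mM range of 0.8 to 1.2 gave 69, and a minimum 0.25 mM ratio of 1.2 or 2 gave 117 or 2. Leaving out 1 library gave 23 (without b) to 278 (without a), and 87 without 0.1 mM replicate 3. The count of the 36 called against control stayed within 1.5-fold in every alternative. Over all genes, the number called against control in either direction ran from 1112 (without c) to 6491 (without a). Between the doses the count of the 36 was 36 with DESeq2, and 0 to 36 with 1 library left out, where 36 is without a. For the departure from a line, a test added with the data known, it was 0 to 9, where 9 is without a. The choice used the levels at all 3 diets, so nothing is read from these counts of the 36. With TMM, the share for the left-out library was 73.8% for 0.1 mM replicate 3 and 48% for library a, and the neighbours numbered 11, an alternative chosen after seeing the data. The 6 genes named by rule kept their call against control in all 16 alternatives and gained one between the doses in 2, DESeq2 and without a. With the replicate number as a block in control and 0.1 mM, 0 of the 36 were called at 0.1 mM. Same-numbered libraries did not deviate together (r = -0.246, 0.0889 and -0.208), and the 0.25 mM columns all carry the same number.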
